A study of Mus musculus with 7 samples.

Results

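The 10 genes described here mark glutamatergic (excitatory) neurons of the forebrain, and they were chosen by name: the vesicular glutamate transporter genes Slc17a7, Slc17a6 and Slc17a8, the transcription factor genes Neurod1, Neurod2, Neurod6, Emx1 and Emx2, and the synaptic genes Camk2a and Nrgn. Each name matched 1 row of the deposited table, so 10 of its 54532 genes are members, and all 10 passed the filter on low counts that left 16308 genes to test. RNA was sequenced from motor cortex of 4 conditional knockout (cKO) and 3 wild-type (WT) mouse samples. All 7 samples came from animals that received a virus named GA100 in the left and right lateral ventricle on postnatal day 0, and tissue was taken 3 months later, after behavioural tests. The series title names TIA1 and a C9orf72 poly-GA model, and no uninjected samples were used here. The labels give neither strain, sex, the deleted gene, the driver of its deletion nor the cells that lost it, and they do not say in so many words that each library is a separate animal, so the p-values speak of variation among libraries, which may be technical.

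Excitatory neurons pack glutamate into synaptic vesicles with a vesicular glutamate transporter. In the cortex most of them use Slc17a7 (VGLUT1). Slc17a6 (VGLUT2) is the main transporter of thalamic and brainstem neurons and of olfactory bulb mitral cells, and Slc17a8 (VGLUT3) is found in some serotonergic, cholinergic and GABAergic cells. NEUROD proteins are basic helix-loop-helix factors that bind E-box motifs and drive neuronal differentiation. EMX1 and EMX2 are homeodomain factors that pattern the cortical primordium. Camk2a encodes the alpha subunit of a calcium/calmodulin-dependent kinase of excitatory synapses, and Nrgn encodes neurogranin, which binds calmodulin in dendrites.

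The stretches upstream of genes of the 2 families are shown because the transporter genes parted in direction between genotypes while Neurod2 and Neurod6 lay on the same side as Slc17a7. Each is 200 bases, from 250 to 51 bases upstream of a RefSeq start (GRCm38.p6, the same build as the mm10 of the files), written in the direction of the gene. Capitals mark the E-box CANNTG, searched on both strands. Neurod1 also had a negative value (-0.10), and its stretch is not printed. Whether any of these sites has a part in the differences between genotypes was not tested.

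Slc17a7 (chr7:45163671-45163870, forward strand): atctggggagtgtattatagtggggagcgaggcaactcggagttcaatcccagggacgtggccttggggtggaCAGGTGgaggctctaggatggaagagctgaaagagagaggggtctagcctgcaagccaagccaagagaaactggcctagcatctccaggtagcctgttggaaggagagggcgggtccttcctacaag

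Slc17a6 (chr7:51621580-51621779, forward strand): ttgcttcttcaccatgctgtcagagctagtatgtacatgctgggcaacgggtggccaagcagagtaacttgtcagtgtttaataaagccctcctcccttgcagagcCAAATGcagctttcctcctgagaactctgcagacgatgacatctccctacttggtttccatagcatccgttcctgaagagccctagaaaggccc

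Slc17a8 (chr10:89621300-89621499, reverse strand): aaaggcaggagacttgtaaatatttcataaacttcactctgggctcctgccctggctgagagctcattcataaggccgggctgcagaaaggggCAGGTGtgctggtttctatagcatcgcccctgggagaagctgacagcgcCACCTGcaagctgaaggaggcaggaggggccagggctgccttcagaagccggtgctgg

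Neurod2 (chr11:98329696-98329895, reverse strand): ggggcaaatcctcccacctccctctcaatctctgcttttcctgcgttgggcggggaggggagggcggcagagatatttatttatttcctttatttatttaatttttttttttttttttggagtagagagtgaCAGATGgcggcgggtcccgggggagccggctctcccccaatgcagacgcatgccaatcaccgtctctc

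Neurod6 (chr6:55681314-55681513, reverse strand): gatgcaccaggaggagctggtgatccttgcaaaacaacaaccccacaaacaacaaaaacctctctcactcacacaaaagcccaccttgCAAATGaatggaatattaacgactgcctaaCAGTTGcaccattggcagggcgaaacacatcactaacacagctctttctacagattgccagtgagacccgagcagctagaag

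An E-box lay in all 5 stretches, and in 59.0% of the 32851 RefSeq windows of this length. The stretch of Slc17a8 held 2 E-boxes, CAGGTG and CACCTG, that of Neurod6 held CAAATG and CAGTTG, and those of Slc17a7 and Slc17a6 held 1 each, CAGGTG and CAAATG. The variant CAGATG, itself an E-box, lay in the Neurod2 stretch, in no other of the 5, and in 3927 of the 32851 windows. The homeodomain core TAATTA lay in none of the 5 and in 4.19% of all windows. RefSeq windows matched 9 of the 10 members. Those of Neurod1, Emx1, Emx2 and Nrgn and the second windows of Slc17a6 and Slc17a8 are not printed. They reach into the gene as the deposited table places it. Among these unprinted windows, TAATTA lay in the second windows of Slc17a6 and Slc17a8. CAGATG lay in the second window of Slc17a6 and, on the other strand, in the window of Nrgn. The window of Emx2 and the second window of Slc17a8 held no E-box.

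Total counts per library lay between 15181390 and 16403202 in cKO and between 15213977 and 16463721 in WT. Tia1, which the title names, had 72.7 to 81.9 CPM (counts scaled to library size) in the libraries labelled cKO and 60.6 to 95.8 CPM in WT, with a log2 fold change of 0.07 ± 0.13 (SE), so this gene did not check the labels; cKO below means the libraries so labelled. Summed counts of 7 olfactory bulb markers were 213 CPM in cKO replicate 3 against 10.6 to 11.9 CPM in the other cKO libraries and 12.4 to 13.2 CPM in WT. Striatal marker sums were highest in cKO replicate 2 (2526 CPM) and cKO replicate 3 (1961 CPM), against 1452 and 1667 CPM in the other cKO libraries and 1424 to 1770 CPM in WT. Meningeal fibroblast sums were highest in cKO replicate 3 (115 CPM) and WT replicate 1 (104 CPM), and lay between 46.8 and 72.1 CPM in the other 5. Xist was counted in cKO replicate 1 and WT replicate 1 (19151 and 15217 counts) and the Y-linked Ddx3y in the other 5 libraries (1073 to 1386 counts). Values and counts with some of these libraries left out are given below.

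Per kilobase of gene, as the authors' FPKM, the members spanned more than 2 orders of magnitude in both genotypes. Nrgn averaged 583 FPKM in cKO and 697 FPKM in WT, and Camk2a 360 FPKM in cKO and 419 FPKM in WT, with ranges that overlapped. Slc17a7 came next with 195 FPKM in cKO and 242 FPKM in WT, below every Camk2a value and far above its relatives. Neurod6 (26.3 FPKM in cKO, 33.0 FPKM in WT) and Neurod2 (23.9 FPKM in cKO, 27.96 FPKM in WT) followed, with ranges that overlapped. Emx1, Slc17a6 and Neurod1 shared a lower band, with means of 4.91, 5.39 and 3.95 FPKM in cKO and of 6.41, 4.01 and 4.25 FPKM in WT. Slc17a6 had a higher mean than Emx1 in cKO and a lower one in WT. Emx2 (2.70 FPKM in cKO, 2.95 FPKM in WT) and Slc17a8 (1.77 FPKM in cKO, 1.32 FPKM in WT) were the scarcest, and their ranges overlapped neither each other nor that band. Gene length in this scale is the length the table gives, whatever transcripts are used.

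**Figure D1:**
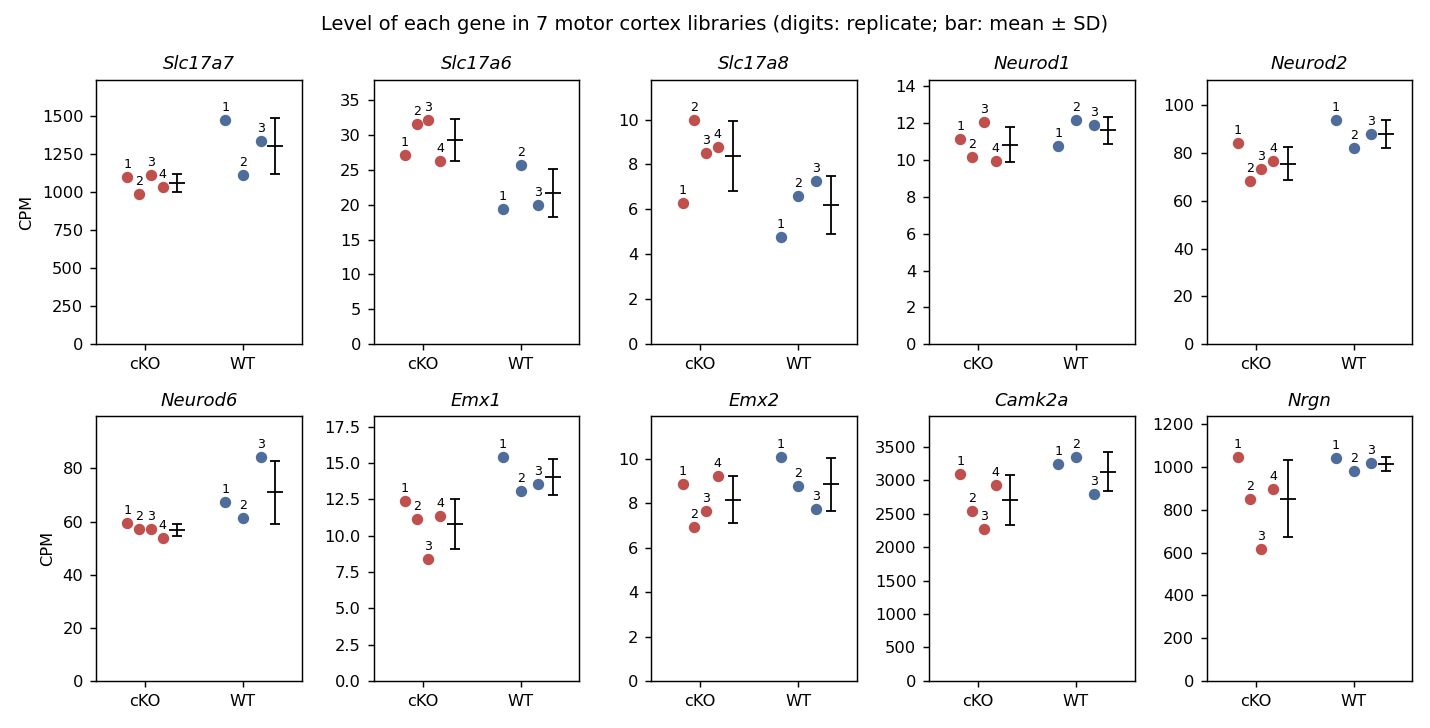
Level of each gene in CPM (y axis, starting at 0) in the cKO (red) and WT (blue) libraries; each point is a library with its replicate number, and the bar is the mean ± SD. Slc17a6 is higher in every cKO library than in every WT library, Neurod6 and Emx1 are lower in every one, and the groups overlap for the other 7 genes.

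The deposited table places Slc17a7 at chr7:45163949-45176142 and Slc17a6 at chr7:51622006-51671119, both on the forward strand, and Slc17a8 at chr10:89574020-89621253 on the reverse strand (mm10). Values per gene are summed over whole genes, not single exons. The genotypes differed in opposite directions among the transporters, with none past the adjusted threshold. Slc17a7, the cortical form, had 1101, 987, 1111 and 1032 CPM in cKO replicates 1 to 4 against 1473, 1109 and 1333 CPM in WT replicates 1 to 3. The 4 cKO libraries lay close together, and WT replicate 2 lay among them while WT replicates 1 and 3 stood above. Its log2 fold change, cKO over WT here and throughout, was -0.30 ± 0.10 (SE; 95% interval from -0.52 to -0.08; edgeR unadjusted p = 0.0112). Without WT replicate 1, its highest library, the value was -0.21 and the edgeR unadjusted p 0.0747.

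Slc17a6 had 27.2, 31.6, 32.1 and 26.3 CPM in cKO against 19.4, 25.7 and 19.9 CPM in WT. Every cKO library was above every WT library, by a narrow gap between cKO replicate 4 and WT replicate 2. The log2 fold change was 0.43 ± 0.13 (SE; 95% interval from 0.16 to 0.71; edgeR unadjusted p = 0.00474). Cells that use this transporter also lie outside the cortex, and cKO replicate 3, its highest library, was the one rich in olfactory bulb markers. Without that library the value was 0.38, and without cKO replicates 2 and 3 together it was 0.30. Thalamic markers had positive values in 7 of 9 tested genes. Their sums were 198 CPM in cKO replicate 3, 131 to 148 CPM in the other cKO libraries and 118 to 138 CPM in WT. Ntng1 had 43.8 CPM in cKO replicate 3 against 12.4 to 19.0 CPM in the other libraries. Zic1 had 35.2 CPM there against 9.71 to 16.4 CPM in the others. The rest of the list was mixed in cKO replicate 3. Plekhg1 (24.9 CPM), Prkcd (6.76 CPM) and Rgs16 (5.88 CPM) had their lowest cKO values there. Amotl1 (57.8 CPM), Tcf7l2 (5.61 CPM) and Gbx2 (0.135 CPM) had their highest cKO values there, and Lef1 and Synpo2 lay in between. The defining thalamic genes Tcf7l2 and Gbx2 averaged 5.19 and 0.080 CPM in cKO and 4.65 and 0.021 CPM in WT. The part of these tissues in the Slc17a6 difference was not tested.

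Slc17a8 had 6.27, 9.98, 8.52 and 8.77 CPM in cKO against 4.77, 6.61 and 7.26 CPM in WT. The groups overlapped, as cKO replicate 1 lay below WT replicates 2 and 3. The log2 fold change was 0.43 ± 0.19 (SE; 95% interval from 0.01 to 0.86; edgeR unadjusted p = 0.0464). It was 0.27 without WT replicate 1 and 0.26 in limma on log2(FPKM + 1), a scale that compresses low values. Markers of serotonergic and cholinergic cells summed to 14.1 to 35.7 CPM in cKO and 11.995 to 14.1 CPM in WT, highest in cKO replicate 2, which also had the highest Slc17a8. All 4 tested genes of that list had positive values, led by the choline transporter gene Slc5a7 with 13.5 ± 5.86 CPM (SD, n = 4) in cKO and 6.85 ± 0.225 CPM (SD, n = 3) in WT. Slc6a4 was at 0 in all cKO libraries and in WT replicates 2 and 3, with 1 count in WT replicate 1. Fev was at 0 in all WT libraries and in cKO replicates 3 and 4. In cKO replicates 1 and 2 Fev had 4 and 2 counts. These counts are too low to compare genotypes. Tph2, the other serotonergic gene of the list, had 4 to 16 counts per library. The part of serotonergic and cholinergic cells in the Slc17a8 difference was not tested.

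**Figure D2:**
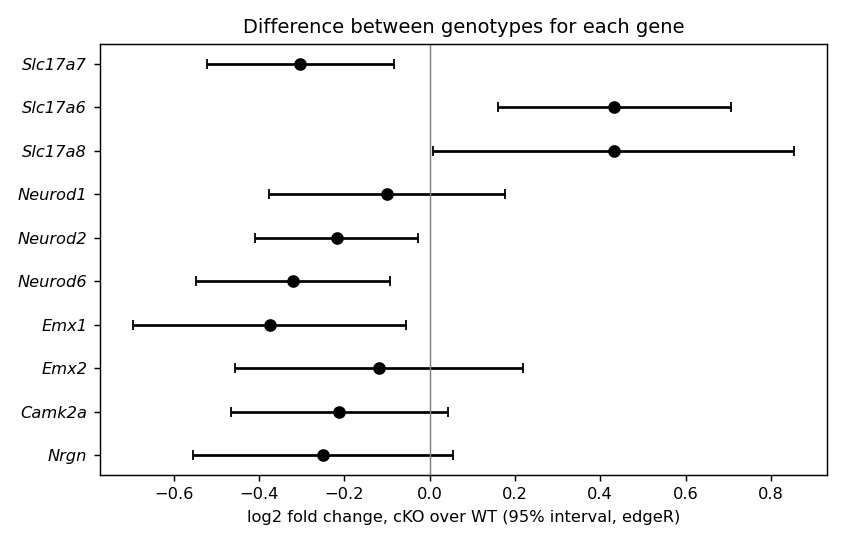
Log2 fold change of cKO over WT for each gene (x axis) with its 95% interval from edgeR over 4 cKO and 3 WT libraries. The values run from -0.37 (Emx1) to 0.43 (Slc17a6 and Slc17a8), and 6 of the 10 intervals leave out 0; these intervals are not adjusted for the number of genes tested.

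Within a library the transporters can be set against one another without any scaling between libraries. Slc17a7 made up 97.0%, 95.8%, 96.4% and 96.6% of the summed FPKM of the 3 transporters in cKO against 98.3%, 97.1% and 97.9% in WT. Slc17a6 held 2.39% to 3.06% in cKO and 1.29% to 2.25% in WT, and Slc17a8 held 0.631% to 1.11% in cKO and 0.364% to 0.661% in WT. The difference in the Slc17a7 share was -1.34 percentage points, and the groups did not overlap, though cKO replicate 1 and WT replicate 2 nearly met. An exact two-sided permutation test over the 35 splits gave p = 0.0571, the smallest this design allows, and 0.0857 adjusted over the 3 ratios tested. The genes of all 3 ratios were chosen with earlier results of these libraries known. The p-values of the ratios are therefore not independent of those results.

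The balance of Slc17a7 against Slc32a1, the vesicular GABA transporter of inhibitory neurons, was also lower in cKO. The log2 ratio of their FPKM was 2.81, 2.44, 2.55 and 2.76 in cKO against 3.30, 2.93 and 3.14 in WT, with a difference of -0.48 and no overlap. The exact two-sided permutation test again gave p = 0.0571, or 0.0857 adjusted over the 3 ratios. Both sides of the ratio differed in mean: Slc32a1 had 88.2 ± 9.46 CPM (SD, n = 4) in cKO and 77.2 ± 1.41 CPM (SD, n = 3) in WT, highest in cKO replicate 3 at 98.3 CPM. Striatal neurons also carry Slc32a1, and the 2 cKO libraries with the highest striatal sums had the lowest ratios; that link was not tested. In bulk tissue, fewer cells of a type and less RNA per cell cannot be told apart.

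**Figure D3:**
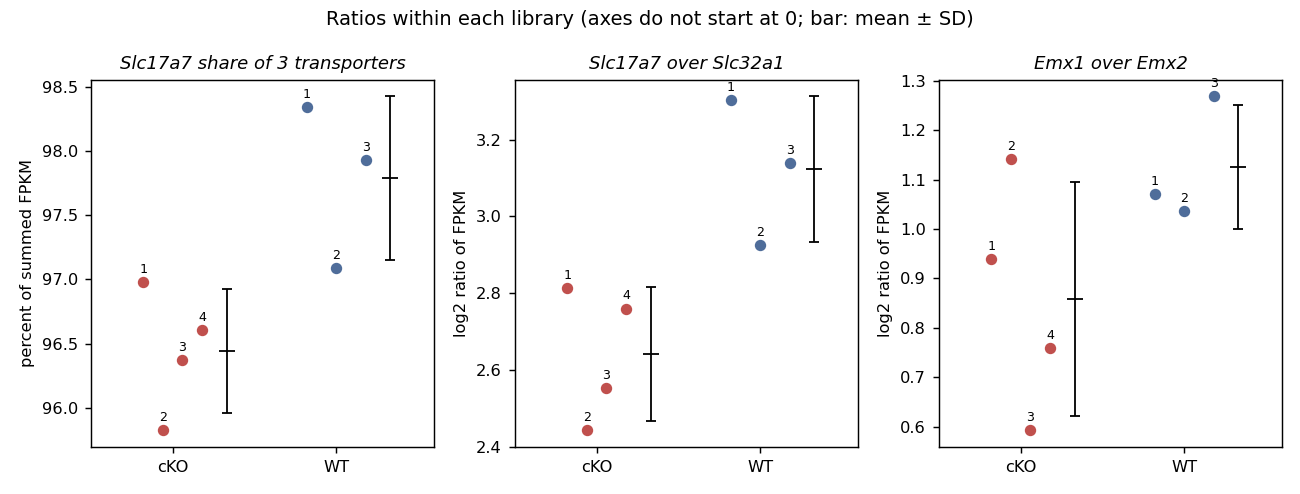
Ratios within each library in cKO (red) and WT (blue), with replicate numbers and mean ± SD: the Slc17a7 share of summed FPKM of the 3 transporters in percent, and log2 ratios of FPKM for Slc17a7 over Slc32a1 and Emx1 over Emx2. The first and second separate the genotypes, with means of 96.4% and 2.64 in cKO and 97.8% and 3.12 in WT, and the third overlaps.

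Neurod1 (chr2:79452521-79456751), Neurod2 (chr11:98325415-98329648) and Neurod6 (chr6:55677822-55681263) all lie on the reverse strand. Neurod6, a marker of pyramidal neurons, had 59.6, 57.1, 57.0 and 53.9 CPM in cKO against 67.2, 61.4 and 84.4 CPM in WT. All cKO libraries were below all WT libraries, and WT replicate 3 stood well above the rest. The log2 fold change was -0.32 ± 0.10 (SE; edgeR unadjusted p = 0.00994), and -0.18 without WT replicate 3 (edgeR unadjusted p = 0.0847). Neurod2 had 84.3, 68.2, 73.2 and 76.6 CPM in cKO against 93.8, 82.2 and 87.8 CPM in WT, with cKO replicate 1 inside the WT range. Its log2 fold change was -0.22 ± 0.09 (SE; edgeR unadjusted p = 0.0292), and -0.13 without cKO replicates 2 and 3. Neurod1, whose adult expression in the forebrain is strongest in the dentate gyrus, had 9.96 to 12.04 CPM in cKO and 10.8 to 12.2 CPM in WT. Its log2 fold change was -0.10 ± 0.13 (SE; 95% interval from -0.38 to 0.18), and single libraries left out moved it between -0.16 and -0.067. Leaving out cKO replicate 3 and WT replicate 1 together gave -0.21. The gene Cerkl, which overlaps Neurod1 on the same strand, had 7 to 20 counts.

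Emx1 (chr6:85187438-85204462) and Emx2 (chr19:59458372-59465357) lie on the forward strand. Emx1 had 12.4, 11.1, 8.39 and 11.3 CPM in cKO against 15.4, 13.1 and 13.5 CPM in WT. Each cKO library was below each WT library, and cKO replicate 3 was the lowest. The log2 fold change was -0.37 ± 0.15 (SE; 95% interval from -0.70 to -0.05; edgeR unadjusted p = 0.0255). It was -0.28 without cKO replicate 3, -0.24 without cKO replicates 2 and 3, and -0.20 without cKO replicate 3 and WT replicate 1, both rich in meningeal markers. Emx2 had 8.86, 6.92, 7.64 and 9.21 CPM in cKO against 10.1, 8.77 and 7.73 CPM in WT, with wide overlap. Its log2 fold change of -0.12 ± 0.15 (SE; 95% interval from -0.46 to 0.22) turned to 0.025 without cKO replicates 2 and 3 and to 0.015 without cKO replicate 3 and WT replicate 1. With 1 library left out it lay between -0.21 (WT replicate 3) and -0.019 (WT replicate 1), and it was -0.059 without the replicates numbered 1. The antisense gene Emx2os overlaps Emx2 and had 44 to 74 counts, and without strand marking the reads of the pair cannot be told apart. The log2 ratio of Emx1 to Emx2 differed by -0.27 (0.86 ± 0.24 in cKO, n = 4, and 1.13 ± 0.12 in WT, n = 3, SD), with an exact two-sided permutation p of 0.171.

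Camk2a had 3088, 2539, 2270 and 2923 CPM in cKO against 3249, 3352 and 2795 CPM in WT, and the groups overlapped. Nrgn had 1049, 851, 616 and 898 CPM in cKO against 1044, 980 and 1019 CPM in WT. For Nrgn, cKO replicate 1 was by CPM the highest of all 7 libraries, just above WT replicate 1, and cKO replicate 3 the lowest. By FPKM the order of the first pair turned, with 714 FPKM in cKO replicate 1 and 721 FPKM in WT replicate 1. The log2 fold changes were -0.21 ± 0.12 (SE) for Camk2a and -0.25 ± 0.14 (SE) for Nrgn, and both 95% intervals included 0 (to 0.04 and 0.06). Without cKO replicate 3 they were -0.14 and -0.13, without cKO replicate 3 and WT replicate 1 -0.11 and -0.10, and without cKO replicates 2 and 3 both were -0.061.

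No member passed the threshold. The edgeR quasi-likelihood test with Benjamini-Hochberg adjustment called 0 of the 10 at an adjusted p under 0.05, with adjusted p between 0.679 and 0.885, and it called 0% of all genes tested; DESeq2 called 6 genes, none of them a member. At an unadjusted p under 0.05 it listed 6 of the 10 (Slc17a7, Neurod2, Neurod6 and Emx1 lower, Slc17a6 and Slc17a8 higher), where 7.14% of all genes were listed, 2.91% lower and 4.22% higher. Values below 0 were found in 8 of 10 members, against 48.2% of all genes, values above 0 in 2 of 10, against 51.8% of all genes, and the median was -0.21, against 0.01. The groups did not overlap for 3 of 10 (2 lower and 1 higher), against 7.38% of all genes (3.42% lower and 3.97% higher). The members were chosen with earlier results of these libraries known, so their count is not independent of them.

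The count of 6 rested on some libraries. With 1 library left out it ran from 2 without WT replicate 1, where Slc17a6 and Neurod6 were listed and the share of all genes was 3.34%, to 8 without cKO replicate 1 (9.91%), where Camk2a and Nrgn were added. It was 3 without cKO replicates 2 and 3 (6.89%) and 3 without cKO replicate 3 and WT replicate 1 (6.24%). Within the 5 libraries with Ddx3y counts it was 4 (4.87%), namely Slc17a6 (log2 fold change 0.39), Slc17a8 (0.39), Neurod2 (-0.23) and Neurod6 (-0.38). Slc17a7 (-0.23) and Emx1 (-0.37) were not listed there. The Xist libraries are 1 against 1 and allow no test. With the replicate number as a block it was 8 (7.52%), Camk2a and Nrgn added, and the adjusted p stayed above the threshold for all 10.

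**Figure D4:**
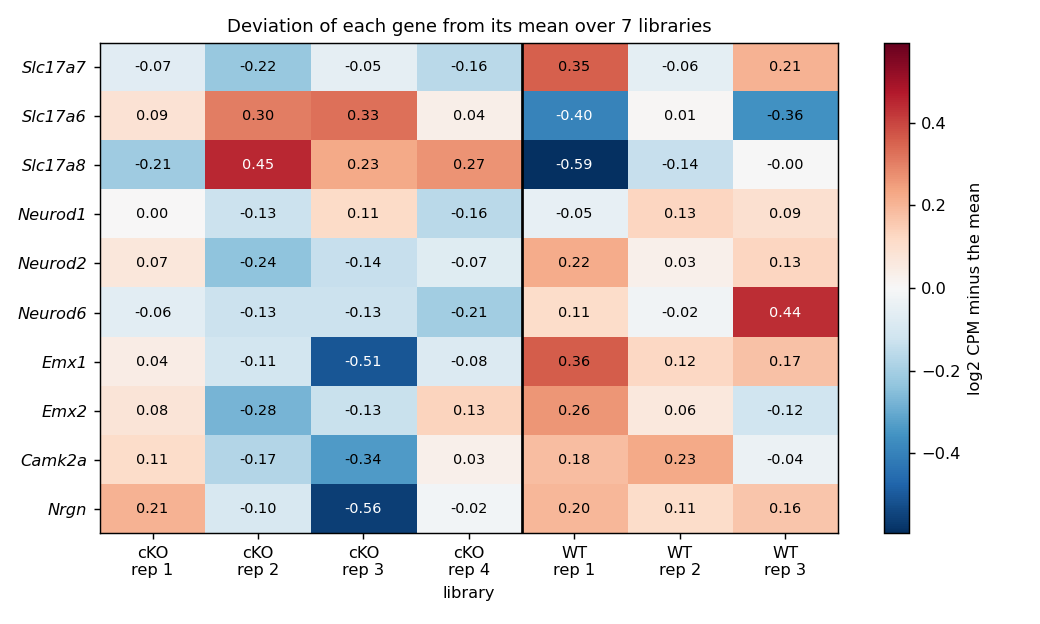
Deviation of each gene's log2 CPM in a library relative to the gene's average across all 7, with cKO libraries to the left of the line and WT to the right. Slc17a7 and Slc17a6 have opposite signs in all 7 libraries, and Emx1 (-0.51) and Nrgn (-0.56) have their lowest values in cKO replicate 3.

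The members did not vary as 1 group across libraries. Taking the root mean square difference of their log2 CPM, each centred on its own mean, the closest pair over the 7 libraries was Emx1 with Nrgn (0.092), both low in cKO replicate 3. Next came Slc17a7 with Neurod2 (0.096), both high in WT replicates 1 and 3. The farthest pair was Emx1 with Slc17a8 (0.54), and Slc17a7 lay 0.44 from Slc17a6. Of all 16308 genes tested, the 5 most like Slc17a7 were Ak5 (0.016), Psmb5 (0.038), Icam5 (0.048), Gm10524 (0.051) and Sprn (0.052). Ak5 encodes a brain adenylate kinase, Icam5 telencephalin, an adhesion protein of forebrain neurons, and Psmb5 a catalytic subunit of the proteasome.

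Other genes of forebrain excitatory neurons were taken from lists. Of 10 further excitatory neuron genes, 7 had negative values, with a median of -0.20. In edgeR 0 were called, and 4 were at an unadjusted p under 0.05, all lower, where 2.91% of all genes were listed lower. Its most abundant genes were Chn1, a Rac-regulating protein (782 CPM in cKO, 779 CPM in WT), and Nptxr, the neuronal pentraxin receptor (689 CPM in cKO, 792 CPM in WT). Of 14 pallial transcription factor genes 11 were tested and 9 had negative values, with a median of -0.13. Mef2c and Nfix, its most abundant members, had -0.09 ± 0.09 and -0.13 ± 0.16 (SE). Bhlhe22, a basic helix-loop-helix factor of the same class as NEUROD and singled out after its values were seen, had 34.97 ± 2.20 CPM (SD, n = 4) in cKO and 45.6 ± 3.35 CPM (SD, n = 3) in WT. Its log2 fold change was -0.38 ± 0.09 (SE; edgeR unadjusted p = 0.00112), with no overlap.

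Of 14 genes that make, recycle or clear glutamate, 10 were positive and 4 negative, with a median of 0.01. The glial glutamate transporter gene Slc1a2 had 0.02 ± 0.09 and Glul, glutamine synthetase, 0.01 ± 0.10 (SE). Slc38a2, which encodes a neutral amino acid transporter that carries glutamine, was the 1 gene of the list at an unadjusted p under 0.05 and was singled out after its values were seen. It had 263 ± 6.35 CPM (SD, n = 4) in cKO and 211 ± 15.9 CPM (SD, n = 3) in WT, without overlap. Its log2 fold change was 0.32 ± 0.08 (SE; edgeR unadjusted p = 0.00108, adjusted p = 0.669). Genes of the calcium/calmodulin kinase system that surrounds Camk2a and Nrgn had 11 negative values of 16 and a median of -0.06, with the kinase inhibitor gene Camk2n1 at -0.10 ± 0.11 (SE). General neuronal genes had 7 negative values of 11 and a median of -0.03. Snap25 and Syt1, both of synaptic vesicle release, had 0.05 ± 0.09 and -0.02 ± 0.10 (SE). Syp was the 1 gene of that list at an unadjusted p under 0.05 and was singled out after its values were seen. It had a log2 fold change of -0.27 ± 0.11 (SE, edgeR unadjusted p = 0.0282). Over these lists edgeR called 0 genes at an adjusted p under 0.05. Of all genes tested, 7.14% were at an unadjusted p under 0.05.

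Markers of other cells were also summed in each library. Of 12 GABAergic genes 9 were positive, with a median of 0.17, and their sum was 1599 to 2046 CPM in cKO and 1494 to 1564 CPM in WT, with no overlap and the highest value in cKO replicate 3. Oligodendrocyte genes were positive in 12 of 12, with a median of 0.39 and sums of 4383 to 8686 CPM in cKO and 4030 to 6254 CPM in WT. The lowest oligodendrocyte sum of each genotype was in cKO replicate 3, the library highest in Slc17a6, and in WT replicate 1, the library highest in Slc17a7. Striatal genes were positive in 10 of 10, with a median of 0.29. Astrocyte genes were positive in 5 of 10 (median 0.05), and microglial genes in 1 of 9 (median -0.14). In these 5 lists the second identifier of Dlx6os1 (GABAergic) was at 0 in all WT libraries, with 1 count in cKO replicate 3 and 0 in the other cKO libraries. No other gene was at 0 in all libraries of a genotype. Hippocampal genes were positive in 4 of 8 (median -0.04), with sums of 94.5 to 111 CPM in cKO and 101 to 115 CPM in WT. Most of each of these sums came from Hs3st4, with 51.2 to 59.1 CPM in cKO and 52.9 to 69.9 CPM in WT. Meningeal genes were positive in 5 of 9 (median 0.06). Olfactory bulb genes were positive in 5 of 5, and choroid and ependymal genes in 7 of 7, with sums of 22.7 to 184 CPM in cKO and 21.4 to 28.5 CPM in WT. Iyd, of the hippocampal list, was at 0 in all cKO libraries and had only 1 to 4 counts in WT. Over all these lists edgeR called 0 genes. At an edgeR unadjusted p under 0.05, 4 of 12 oligodendrocyte, 2 of 12 GABAergic and 2 of 10 astrocyte genes were higher. So were 2 of 7 choroid and ependymal, 2 of 5 olfactory bulb and 1 of 10 striatal genes. The microglial list had 1 of 9 lower, and the hippocampal and meningeal lists had 0 either way. Of all genes, 4.22% were listed higher and 2.91% lower.

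Abundant genes of these lists had the following log2 fold changes (± SE). For GABAergic cells, Gad1, a glutamate decarboxylase gene, had 0.31 ± 0.14. For striatal neurons, Adcy5 had 0.15 ± 0.14 and Pde10a 0.29 ± 0.17, and for thalamic neurons Amotl1 had 0.24 ± 0.11 and Plekhg1 0.27 ± 0.11. The hippocampal list gave Hs3st4 at -0.18 ± 0.10 and Prox1 at 0.12 ± 0.19, and for cholinergic cells Chat, choline acetyltransferase, had 0.65 ± 0.30. The myelin gene Mbp had 0.33 ± 0.21, the astrocyte genes Aldoc and Gfap -0.12 ± 0.10 and 0.27 ± 0.15, and the microglial gene Csf1r -0.11 ± 0.08. The meningeal list gave Col1a2 at -0.10 ± 0.28 and Aebp1 at 0.14 ± 0.27, the olfactory bulb list Cdhr1 at 3.87 ± 1.45 and Calb2 at 1.38 ± 0.73, and the choroid and ependymal list Ttr at 2.04 ± 0.92 and Foxj1 at 0.51 ± 0.27. The part of these cells in the differences of the 10 glutamatergic genes was not tested.

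**Figure D5:**
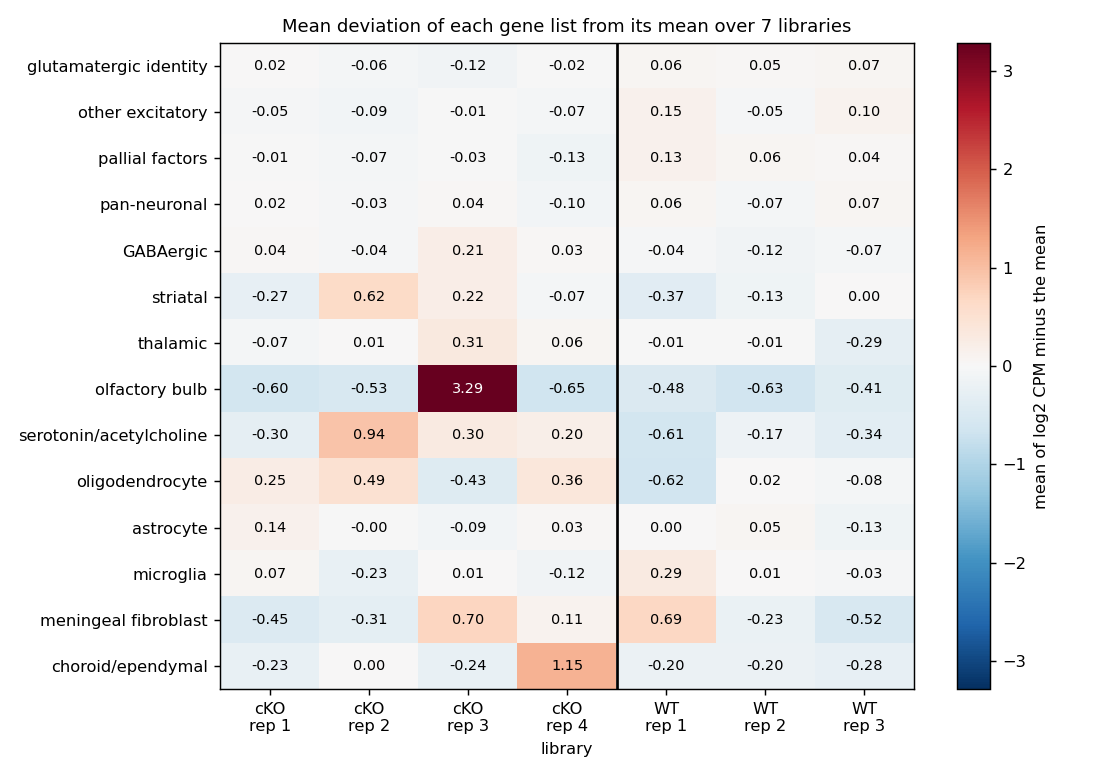
Average deviation of log2 CPM within each gene list, each gene taken relative to its own 7-library average, cKO to the left of the line and WT to the right. The glutamatergic average spans -0.12 to 0.07, with members of opposite sign offsetting one another (in WT replicate 1, 0.35 for Slc17a7 and -0.40 for Slc17a6). Olfactory bulb genes reach 3.29 in cKO replicate 3 and choroid and ependymal genes 1.15 in cKO replicate 4.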

How the data were processed

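Per the labels' protocols, fragmented mRNA was copied with random primers into complementary DNA and no step that marks strand is described. The build mm10 and the tools DESeq2 1.20.0 and featureCounts 1.5.0-p3 come from the submitters' processing notes; for the aligner, annotation release and strand setting, nothing was given in the sources used here. The authors deposited raw gene counts and FPKM for 54532 genes in 7 libraries. The deposited FPKM equal counts per gene length over a library total 0.968 to 1.02 times the count sum. Depth was alike, and intervals cover the spread between libraries.

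Counts were tested with edgeR 4.0.16 (R 4.3.3): TMM factors, default filterByExpr, quasi-likelihood F test, Benjamini-Hochberg adjustment over all genes tested. Standard errors are the log2 fold change over the root of F. CPM use TMM-scaled totals; log2 CPM use a prior count of 2. The scripts were tested on simulated data. The 3 ratios used exact permutation tests (SciPy 1.17.1). Pairs of libraries differed beyond sampling noise (chi-square per degree of freedom 4.76 to 25.5).

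The members and gene lists were chosen with earlier results of these data known. The rule for named genes was all members and the 5 genes most like Slc17a7. From each list it took the 2 most abundant genes with any called gene. Genes outside the rule (Bhlhe22, Slc38a2, Syp, Ntng1, Zic1, Prkcd, Rgs16, Lef1, Synpo2, Tph2, Slc32a1, Tcf7l2, Gbx2 and those at 0) were chosen after their values were seen or as a ratio's partner. Some genes that the rule names are not reported here. Dlx6os1 of the GABAergic list has a second identifier near 0, which enters that list's sums. Replicate numbers are shared by both genotypes, with no label saying why. Deviations of same-numbered libraries correlated at 0.110, 0.128 and 0.122, all above the minimum of 0.1 set for pairing. Differently numbered libraries passed it too, with 0.210 for cKO replicate 4 with WT replicate 2 and 0.129 for cKO replicate 3 with WT replicate 1. The rule therefore cannot show that the numbers pair the libraries, and the main tests did not pair them. Alternatives were RLE factors, library size only, no filter, a minimum of 1 CPM reached by 3 libraries, limma 3.58.1 on log2(FPKM + 1) and log2(FPKM + 0.1), the count model of DESeq2 1.42.0, the replicate block, and libraries left out.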

Additional observations from a re-analysis of the deposited data

Results flagged for a closer look

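Among the 4 cKO libraries, 3 of 30 sets of values had 1 library far from the others. None of the 3 was a value of the 10 glutamatergic genes. Chance alone flags about 1 set in 20 when sets are independent and chosen without sight of the data. These sets share genes, and their lists were chosen with earlier results known, so that rate cannot be set against the 3 flags. The summed GABAergic markers were 2046 CPM in cKO replicate 3. The summed olfactory bulb markers were 213 CPM in cKO replicate 3, led by Cdhr1 with 103 CPM against 1.06 to 2.53 CPM in the other cKO libraries. The summed choroid plexus and ependymal markers were 184 CPM in cKO replicate 4, led by Ttr, which encodes transthyretin, with 154 CPM.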

How the results depend on the processing

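The count of genes called was 0 in edgeR, 198 with no filter on low counts, 6 with DESeq2, 3 with limma on log2(FPKM + 1) with no filter, 2 with the replicate block, and 1 without cKO replicate 3 and WT replicate 1; the cause was not tested. Leaving out 1 library gave 0 to 3 calls. None of these calls was a member, and over 19 other settings the smallest adjusted p of any member was 0.0757 (Slc17a6, no filter). The share of genes at an unadjusted p under 0.05 was 7.14%, and 3.34% without WT replicate 1. Of 190 member values under other settings 2 turned in sign, both of Emx2 (0.025 and 0.015, when pairs of libraries chosen after seeing the data were left out; -0.21 without WT replicate 3). The replicate block changed no call of a member. Without 1 library the difference in the Slc17a7 share lay between -1.69 and -1.06 points, and that of its log2 ratio to Slc32a1 between -0.58 and -0.39, and that of Emx1 to Emx2 between -0.36 and -0.18. With 3 to 4 libraries a genotype, exact tests cannot pass 0.05.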
